A study of Mus musculus with 8 samples.

Results

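The genes described here are 44 regulators of germ-layer development outside the *Hox* clusters. They were chosen by name from the 19751 genes that could be named on a mouse expression array. By their main known roles, 20 act in the nervous system, 6 in gastrulation and paraxial mesoderm, 10 in lateral mesoderm, heart, blood and mesenchyme, and 3 in endoderm, and 5 are homeobox genes of the *Msx*, *Dlx* and *Meis* families. All encode transcription factors except *Cer1*, which encodes a secreted antagonist of Nodal and BMP ligands. Genes of this kind are typical Polycomb targets in embryonic stem cells (ESCs), but binding of Polycomb proteins to these genes was not measured here.

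Expression in *L3mbtl2*-KD ESCs (4 samples, siRNA Mm_L3mbtl2_4) was compared with that in control ESCs (4 samples, non-silencing AllStars siRNA), each on its own one-colour Agilent array. Both groups were VV3 ESCs, a male mouse line with a *Vasa*::Venus transgene, which makes cells fluoresce when the germ cell gene *Vasa* (*Ddx4*) is on. The line was kept in serum and LIF on STO fibroblast feeders treated with mitomycin C. The methods report that *Vasa*-positive cells were purified by FACS, and the account of the data analysis speaks of such cells on the knockdown side only. How the control ESCs on these arrays were sorted, if they were, is not clear from it. The labels call the 4 samples of each group biological replicates, and p-values here measure the spread between these samples. The number of arrays limits the precision.

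Polycomb repressive complex 2 (PRC2) methylates lysine 27 of histone H3, and PRC1 places ubiquitin on histone H2A. In ESCs both marks cover the CpG-rich promoters of many developmental regulators, which stay silent or nearly silent while active histone marks are also present, a state called bivalent. L3MBTL2 belongs to a variant of PRC1 built around PCGF6, which also holds MGA, MAX and E2F6.

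Values are log2 intensities relative to the 75th percentile of each array, so that 0 is this percentile, and values of different probes cannot be compared with each other. The 75th percentile was between 791 and 1038 intensity units. Well above background were 62 to 66.6% of the spots of a control array and 59.5 to 63.9% of those of an *L3mbtl2*-KD array. For each replicate number the *L3mbtl2*-KD array had the smaller share. The arrays lay on 2 slides, replicates 1 and 2 of each group on the first and replicates 3 and 4 on the second. Control samples always took positions 1 and 3 of a slide and *L3mbtl2*-KD samples positions 2 and 4, so position and group cannot be told apart.

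The siRNA target itself was measured first. *L3mbtl2* was at 0.27, -0.18, -0.21 and -0.31 in control replicates 1 to 4 and at -1.45, -1.26, -1.58 and -1.73 in *L3mbtl2*-KD replicates 1 to 4. All *L3mbtl2*-KD arrays lay below all control arrays, at 37.9% of the control intensity (log2 fold change -1.40, with a standard error, SE, of 0.15 and an adjusted p of 0.00094, both from limma, where p-values were adjusted by the Benjamini-Hochberg method). The ESC label was checked with 12 markers of pluripotent ESCs, among them *Pou5f1*, *Sox2*, *Nanog* and *Zfp42*. All 12 were well above background on all 8 arrays and none was called as changed. Their fitted log2 fold changes ran from -1.32 for *Nanog* (limma adjusted p = 0.096) to 0.17, with a median of -0.25 against -0.01 over all genes tested. *Klf4*, named like *Nanog* after its value was seen, fell below 2-fold without overlap of the groups (-0.70, SE 0.18, limma adjusted p = 0.027). The summed intensity of the 12, in units of the 75th percentile of the array, was 343 to 364 in control and 325 to 365 in *L3mbtl2*-KD samples. Without *Dppa5a*, which made up 44.3% of it, the sums did not overlap (194 to 215 and 172 to 184).

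Most of the regulators that could be measured were not called as changed. More were called lower than higher, and many of those called lower were dim in *L3mbtl2*-KD ESCs. By sign alone, with one probe per gene, 17 of the 31 regulators tested had a negative fitted change and 14 a positive one. Over all genes tested, 51.6% had a negative one. A gene was tested when all 4 arrays of either group showed one of its probes well above background, which held for 31 of the 44 regulators and 13653 genes in all. To be called, a gene needed a tested probe with both an adjusted p under 0.05 and a change of over 2-fold. By this rule *Pou4f1* was the only regulator called higher in *L3mbtl2*-KD ESCs (1 of 31), while 340 of all 13653 genes (2.49%) were called higher. In the other direction, 10 regulators were called lower (10 of 31, 32.3%), against 438 of all genes tested (3.21%). They were *Pax3*, *Lhx5*, *Irx3*, *Zic1*, *Meox1*, *Foxc1*, *Foxc2*, *Tal1*, *Meis1* and *Meis2*. At an adjusted p under 0.05 and any fold, 3 regulators were higher (10.3% of all genes) and 11 were lower (11.7% of all genes). With the replicate numbers taken as pairs and fitted as a block, these counts were 8 and 17 (23.9% and 26.0% of all genes), with *Zic1* in both through its 2 probes. The *L3mbtl2*-KD arrays lay entirely below the control arrays for 11 of the 31 (15.1% of all genes tested) and entirely above them for 4 (13.9% of all genes tested).

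These shares are set beside each other as a description only. The regulators were listed with results of these data known, and for 6 of the 10 called lower, the called probe had been tested only because of its control arrays, since it was dim in *L3mbtl2*-KD ESCs. Among the 25 regulators whose probes were well above background on all 8 arrays, 4 were called lower (*Lhx5*, *Irx3*, *Meis1* and *Meis2*), against 290 of 12960 genes (2.24%). With normexp background correction of the raw spot intensities, 194 genes were called higher and 159 lower, in place of 340 and 438, and 5 regulators were called lower. The median log2 fold change of the 31 regulators was -0.18. Only *Foxc1* and *Tal1* could be entered at a bound in place of the fitted change. Both stay below the median at their bounds, so this could not move it. Slide by slide the median of the regulators was -0.22 and -0.15, while the median over all genes tested was -0.02 and 0.00. In these bulk samples, fewer cells of a type and less RNA per cell cannot be told apart.

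**Figure D1:**
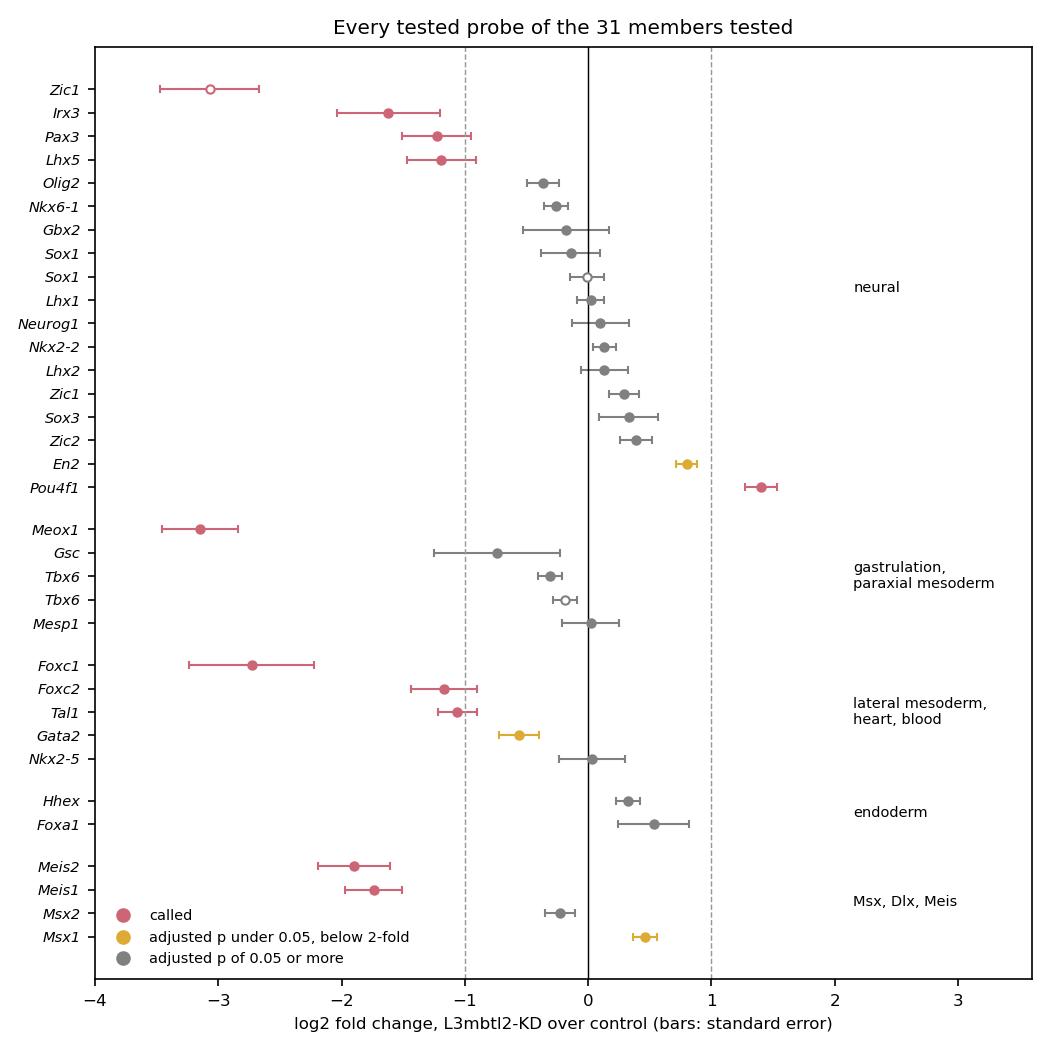
Log2 fold change (*L3mbtl2*-KD over control) of each tested probe of the 31 regulators, by group, with bars for the standard error and dashed lines at 2-fold. Open circles are second probes of a gene. The called genes spread from a fitted -3.15 for *Meox1* to 1.40 for *Pou4f1*. The lowest points (*Meox1*, *Zic1* and *Foxc1*) are fits to probes above background on 2, 2 and 0 *L3mbtl2*-KD arrays, and the 2 probes of *Zic1* lie on different sides of 0.

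Promoter sequence from RefSeq (GRCm38.p6, 250 bases before to 50 bases after each start) was matched by symbol for 33 of the 44 genes. This is 75%, under the 80% set for a check of CpG content or motifs over the whole set, so that check is void. No window was matched for *Pax3*, *Dlx5*, *Sox3*, *Foxf1*, *Tbx5*, *Lhx5*, *Meox1*, *Foxc2*, *En2*, *Mixl1* and *Zic2*. The 250 bases before the start are shown for *Pou4f1*, the gene called higher, and for 3 of the 6 genes called lower that had a window, picked by hand, because CpG-rich promoters are the usual ground of Polycomb complexes in mammals. Capitals mark each CG dinucleotide.
*Pou4f1*, chr14:104468000-104468249, minus strand: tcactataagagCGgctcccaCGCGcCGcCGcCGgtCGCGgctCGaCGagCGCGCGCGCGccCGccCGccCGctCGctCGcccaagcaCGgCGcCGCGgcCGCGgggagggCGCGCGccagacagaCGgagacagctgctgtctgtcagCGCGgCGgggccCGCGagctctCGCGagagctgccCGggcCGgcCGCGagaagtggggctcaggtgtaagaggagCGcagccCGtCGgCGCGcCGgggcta
*Zic1*, chr9:91365769-91366018, minus strand: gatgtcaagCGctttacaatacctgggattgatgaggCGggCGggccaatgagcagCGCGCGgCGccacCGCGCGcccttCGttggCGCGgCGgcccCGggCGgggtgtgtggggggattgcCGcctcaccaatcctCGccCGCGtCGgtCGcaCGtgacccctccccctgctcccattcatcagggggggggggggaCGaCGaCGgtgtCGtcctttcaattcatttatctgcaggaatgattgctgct
*Foxc1*, chr13:31806396-31806645, plus strand: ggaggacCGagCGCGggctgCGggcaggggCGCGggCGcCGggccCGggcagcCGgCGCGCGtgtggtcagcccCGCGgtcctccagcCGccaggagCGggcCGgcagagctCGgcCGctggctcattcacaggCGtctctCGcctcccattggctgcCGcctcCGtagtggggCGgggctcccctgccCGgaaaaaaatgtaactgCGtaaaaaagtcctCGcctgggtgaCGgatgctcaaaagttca
*Meis1*, chr11:19018970-19019219, minus strand: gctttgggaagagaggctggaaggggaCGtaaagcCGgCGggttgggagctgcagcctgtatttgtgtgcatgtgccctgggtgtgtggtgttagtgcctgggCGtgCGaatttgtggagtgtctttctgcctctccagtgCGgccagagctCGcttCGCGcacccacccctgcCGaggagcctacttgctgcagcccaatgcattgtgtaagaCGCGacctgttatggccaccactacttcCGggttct
These stretches held 47 CG dinucleotides before *Pou4f1*, 27 before *Zic1*, 29 before *Foxc1* and 13 before *Meis1*. In the windows of 300 bases, the ratio of observed to expected CG dinucleotides was 1.24, 0.969, 0.943 and 0.589 for these genes in turn. It was 0.748 for *Irx3*, 0.666 for *Meis2* and 0.647 and 0.758 for the 2 windows of *Tal1*, also called lower. Among the regulators tested but not called, the ratio ran from 0.174 for *Mesp1* to 1.18 for *Nkx6-1*, so high ratios were not particular to called genes. The median over all windows was 0.384, and with the check void this is a description only. The motif CACGTG, an E-box that reads the same on both strands and is the textbook target of MAX dimers, was searched in the windows of 300 bases. Among the regulators it occurred in *Zic1*, at bases 153 to 158 of the stretch shown, and in *Nkx2-2* and *Gbx2*, which were not called, and 7.15% of all 32851 windows held it. A match of letters is a description and not a binding site.

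Among the 20 neural regulators, 16 were tested, *Pou4f1* rose and *Pax3*, *Lhx5*, *Irx3* and *Zic1* fell. *Pou4f1* encodes a POU homeodomain factor of sensory neurons. Its log2 intensity was -2.11, -1.90, -1.87 and -1.86 in control replicates 1 to 4 and -0.58, -0.78, -0.59 and -0.20 in *L3mbtl2*-KD replicates 1 to 4. The control arrays lay close together, and the lowest *L3mbtl2*-KD array was more than 1 log2 unit above the highest of them. The increase was 2.64-fold (1.40 in log2, SE 0.13, limma adjusted p = 0.00052), with 1.33 and 1.48 within the first and second slide. *En2*, a homeobox gene of the midbrain and anterior hindbrain, was at -0.57, -0.29, -0.43 and -0.44 in control samples and at 0.34, 0.32, 0.45 and 0.36 in *L3mbtl2*-KD samples. The 4 knockdown arrays were nearly level, with an SD of 0.06, and all stood above the controls. *En2* rose 1.74-fold, short of the 2-fold threshold (log2 fold change 0.80, SE 0.085, limma adjusted p = 0.00088; 0.76 and 0.84 within the slides).

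*Irx3*, an Iroquois homeobox gene that patterns the neural tube, gave -0.89, 0.47, 0.17 and 0.51 in control replicates 1 to 4, and -2.62, -0.97, -1.13 and -1.50 in *L3mbtl2*-KD replicates 1 to 4. Replicate 1 was the lowest of its group in both, and control replicate 1 lay only just above the highest *L3mbtl2*-KD array. The fitted change was -1.62 (SE 0.42, limma adjusted p = 0.031), 32.6% of the control intensity, and it was -1.58 and -1.65 within the slides. This call was lost without control replicate 2, 3 or 4 (adjusted p = 0.076, 0.079 and 0.078 from limma), without *L3mbtl2*-KD replicate 4 (0.069) and without the filter on dim probes (0.072), and over all alternatives that used both slides the adjusted p lay between 0.0018 and 0.082. *Lhx5*, a LIM homeobox gene of the developing forebrain, was at -3.54, -2.85, -2.41 and -2.48 in control samples and at -4.47, -3.62, -3.75 and -4.17 in *L3mbtl2*-KD samples. Here the gap between the groups was under 0.1 log2 units, again between control replicate 1 and *L3mbtl2*-KD replicate 2. *Lhx5* fell to 43.9% of control (log2 fold change -1.19, SE 0.28, limma adjusted p = 0.022; -0.86 and -1.52 within the slides). Its call ended without control replicate 3 or 4 (limma adjusted p = 0.062 and 0.057), without *L3mbtl2*-KD replicate 1 or 4 (0.050 and 0.059) and without the filter on dim probes (0.054), with a range of 0.0064 to 0.062 over the alternatives on both slides. With normexp background correction the change of *Lhx5* was -0.54.

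*Pax3* encodes a paired-box factor of the dorsal neural tube, the neural crest and the early muscle lineage. One of its probes was not well above background on any array. The other read -4.85, -3.86, -3.81 and -3.44 in control replicates 1 to 4 and -5.42, -5.36, -4.93 and -5.17 in *L3mbtl2*-KD replicates 1 to 4, where 2 of the 4 arrays were above background. The groups did not overlap, although control replicate 1 came within 0.1 log2 units of *L3mbtl2*-KD replicate 3. The fitted change of *Pax3* was -1.23 (SE 0.28, limma adjusted p = 0.019), with -1.03 and -1.43 within the slides. It was -0.40 with normexp background correction, and the adjusted p of limma was 0.056 without control replicate 3, within a range of 0.0015 to 0.056.

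The 2 probes of *Zic1*, a zinc-finger gene of the dorsal neural tube and cerebellum, disagreed. One fell from -3.49, -2.32, -2.12 and -1.53 in control samples to -5.59, -5.04, -5.12 and -5.98 in *L3mbtl2*-KD samples, where 2 arrays were above background. On this probe every knockdown array was more than 1 log2 unit below every control array, and the change was -3.07 (SE 0.40, limma adjusted p = 0.0020; -2.41 and -3.72 within the slides). The probe with the higher mean signal gave -1.51, -1.26, -1.12 and -1.54 in control samples and -1.23, -1.03, -0.99 and -1 in *L3mbtl2*-KD samples. Its groups overlapped, and the fitted change was 0.29 (SE 0.12, limma adjusted p = 0.12; 0.037 with the replicate number as a block). *Zic1* was therefore called lower through a single probe, and it was not called with one probe per gene. With normexp background correction, the change of the falling probe was -1.36.

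*Gbx2* and *Sox3* were, with *En2*, the 3 regulators whose probes had the highest mean signal, which does not rank the genes by expression. *Gbx2*, a homeobox gene of the anterior hindbrain that is also active in ESCs under LIF, was at 1.44, 0.13, 0.53 and 1.08 in control replicates 1 to 4 and at 1.20, -0.07, 0.33 and 0.97 in *L3mbtl2*-KD replicates 1 to 4. Both groups spanned more than 1 log2 unit, in the same order of replicates, and overlapped almost completely. The difference was -0.18 (SE 0.35, limma adjusted p = 0.76, exact permutation p = 0.629; -0.22 and -0.15 within the slides). In each of the 4 pairs of equal replicate number the *L3mbtl2*-KD sample was the lower, and with the replicate number as a block the standard error was 0.044 and the adjusted p 0.027. *Sox3*, which maintains neural progenitors, was at 0.18, -0.41, -0.12 and 0.60 in control samples and at 0.37, 0.07, 0.28 and 0.85 in *L3mbtl2*-KD samples. Its groups also overlapped, and the *L3mbtl2*-KD sample was the higher in each pair. The difference was 0.33 (SE 0.24, limma adjusted p = 0.38, exact permutation p = 0.286; 0.33 and 0.32 within the slides), and with the block the standard error was 0.065 and the adjusted p 0.016.

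The remaining 8 neural regulators that were tested had adjusted p of 0.05 or more. *Zic2* (log2 fold change 0.39, limma adjusted p = 0.067), *Olig2* (-0.37, adjusted p = 0.072) and *Nkx6-1* (-0.26, adjusted p = 0.11) passed with the replicate number as a block, at adjusted p of 0.017, 0.022 and 0.017. Fitted changes of *Sox1*, *Neurog1*, *Nkx2-2*, *Lhx1* and *Lhx2* were between -0.14 and 0.13 on the probe standing for each gene. *Pax6*, *Pax7*, *Neurog2* and *Six3* were not tested. *Pax6* was above background on 3 arrays of each group, and a second probe of it was above background in control replicate 4 alone, at -2.40. *Pax7*, a paired-box gene of dorsal neural tube and muscle precursors, was at -4.70, -5.08, -3.77 and -5.51 in control samples, above background on 3 arrays, and was not well above background on any *L3mbtl2*-KD array (-6.80, -6.52, -7.67 and -7.25). Its groups did not overlap, and the control intensity was at least 1.67-fold higher.

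For such a bound, the mean of the group in which the gene was seen was divided by a floor for the other group. The floor of an array was its weakest signal that still counted as above background, or the signal of the dim probe if this was stronger. Fitted folds of dim probes are not bounds. *Neurog2* was above background on 1 array of each group, and *Six3* on 3 control arrays and 1 *L3mbtl2*-KD array.

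**Figure D2:**
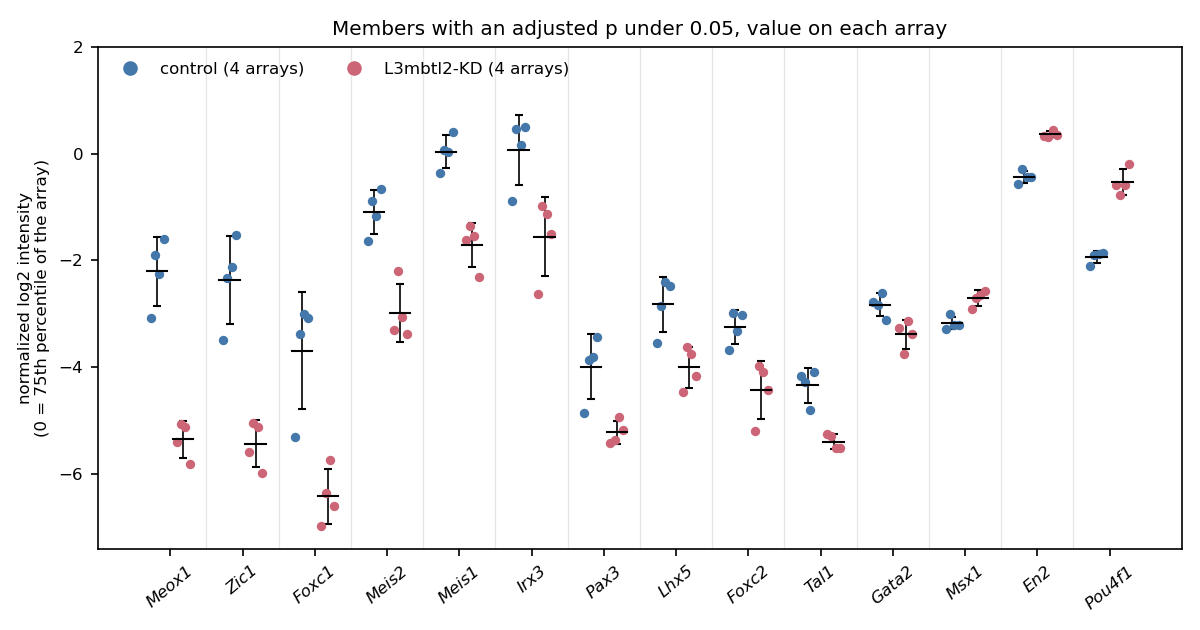
Normalized log2 intensity on each array of the 14 regulators with an adjusted p under 0.05, with means and SD (4 control and 4 *L3mbtl2*-KD arrays per gene; points within a group run from replicate 1 to 4). For *Zic1* the falling probe is drawn. Levels of different genes cannot be compared, and in none of the 14 do the groups overlap.

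Of the 6 regulators of gastrulation and paraxial mesoderm, 4 were tested and *Meox1* fell. *Meox1* is a homeobox gene of the somites. It was at -3.08, -1.90, -2.25 and -1.59 in control replicates 1 to 4 and at -5.40, -5.06, -5.12 and -5.82 in *L3mbtl2*-KD replicates 1 to 4, where 2 arrays were above background. The knockdown arrays lay close together near background, and nearly 2 log2 units separated them from the lowest control array, replicate 1. The log2 fold change was -3.15 (SE 0.31, limma adjusted p = 0.00066) on a probe that was dim in *L3mbtl2*-KD ESCs, with -2.74 and -3.55 within the slides and -1.40 with normexp background correction. *Gsc*, the organizer gene Goosecoid, spanned -4 to -1.89 in control samples and -4.81 to -2.84 in *L3mbtl2*-KD samples. Its change of -0.74 had a standard error of 0.51 and an adjusted p of 0.35 in limma, and with the replicate number as a block 0.096 and 0.0051. *Tbx6*, needed for paraxial mesoderm, gave -0.31 (limma adjusted p = 0.068; 0.019 with the block) and, on its second probe, -0.19. *Mesp1*, which marks nascent mesoderm, gave 0.02. *Msgn1* was not well above background on any array. *Mixl1*, a homeobox gene of the primitive streak, was above background in *L3mbtl2*-KD replicates 1 and 3 alone, at -2.99 and -3.82, while the other knockdown arrays were at -7.47 and -7.03 and the controls between -7.65 and -6.86. The mean of the *L3mbtl2*-KD arrays was at least 1.23-fold higher, and the difference was not tested. This bound rests on *L3mbtl2*-KD replicates 1 and 3 and would not hold without either of them.

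Among the 10 regulators of lateral mesoderm, heart, blood and mesenchyme, 5 were tested, and *Foxc1*, *Foxc2* and *Tal1* were called lower. The forkhead genes *Foxc1* and *Foxc2* act in somites, vessels and heart outflow tract. *Foxc1* was at -5.31, -3.37, -3.01 and -3.07 in control replicates 1 to 4 and at -6.97, -6.35, -5.74 and -6.60 in *L3mbtl2*-KD replicates 1 to 4, where no array was well above background. Control replicate 1 stood about 2 log2 units below the other controls, nearer to the highest *L3mbtl2*-KD array. *Foxc1* was at least 3.51-fold lower in *L3mbtl2*-KD ESCs (fitted log2 fold change -2.73, SE 0.51, limma adjusted p = 0.0090; -2.32 and -3.13 within the slides), and -0.84 was fitted with normexp background correction. *Foxc2* gave -3.68, -2.99, -3.32 and -3.03 in control samples and -5.19, -3.98, -4.09 and -4.43 in *L3mbtl2*-KD samples, of which 3 were above background. As in *Irx3*, replicate 1 was the lowest of both groups. The change of *Foxc2* was -1.17 (SE 0.27, limma adjusted p = 0.021; -1.25 and -1.09 within the slides). It lost its call without control replicate 2, 3 or 4 (adjusted p = 0.054, 0.052 and 0.056 from limma), without *L3mbtl2*-KD replicate 4 (0.052), without the filter on dim probes (0.053), without *L3mbtl2*-KD replicate 1 (log2 fold change -0.91) and with normexp background correction (-0.43). Over the alternatives on both slides its adjusted p was 0.0044 to 0.060.

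*Tal1*, the basic helix-loop-helix gene that starts blood formation, was at -4.16, -4.28, -4.81 and -4.09 in control samples and at -5.26, -5.29, -5.52 and -5.51 in *L3mbtl2*-KD samples, none of which was well above background. It was the only regulator called lower whose lowest control array was not replicate 1. *Tal1* was at least 1.99-fold lower in *L3mbtl2*-KD ESCs (fitted log2 fold change -1.06, SE 0.16, limma adjusted p = 0.0039; -1.06 within each slide). The bound lies just under 2-fold, and the change was -0.17 with normexp background correction (limma adjusted p = 0.34), -0.87 with quantile normalization and -0.98 without control replicate 4, with adjusted p from 0.0016 to 0.34 over the alternatives on both slides. *Gata2*, which keeps blood progenitors, was at -2.77, -2.83, -2.60 and -3.12 in control samples and at -3.27, -3.76, -3.13 and -3.38 in *L3mbtl2*-KD samples. Control replicate 4 and *L3mbtl2*-KD replicate 3 all but met. *Gata2* fell to 68.1% of control (log2 fold change -0.56, SE 0.16, limma adjusted p = 0.043; -0.71 and -0.40 within the slides), which did not reach 2-fold. The adjusted p was 0.05 or more in 13 of 22 alternatives, among them the fits without control replicate 1, 2 or 3 (0.078, 0.085 and 0.11) and without *L3mbtl2*-KD replicate 1, 2 or 4 (0.065, 0.070 and 0.091), with a range of 0.018 to 0.11 on both slides. *Nkx2-5*, of the heart lineage, gave 0.03. *Foxf1*, *Isl1*, *Hand2*, *Tbx5* and *Tcf21* were not well above background on any array.

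Neither tested endoderm regulator was called. *Hhex*, a homeobox gene of anterior endoderm and liver, was higher on all *L3mbtl2*-KD arrays (-0.25, -0.12, -0.39 and -0.31) than on any control array (-0.65, -0.40, -0.64 and -0.65). Its change of 0.32 missed the threshold (SE 0.097, limma adjusted p = 0.054) and passed it with the replicate number as a block (0.0074). *Foxa1*, a pioneer factor of endoderm, gave 0.53 (SE 0.29, limma adjusted p = 0.25; 0.0037 with the block), with overlapping groups. *Cer1* was not well above background on any array.

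Among the *Msx*, *Dlx* and *Meis* genes, 4 of 5 were tested, and both *Meis* genes fell. They encode homeodomain partners of HOX and PBX proteins. *Meis1* was at -0.36, 0.07, 0.04 and 0.40 in control replicates 1 to 4 and at -1.62, -1.36, -1.54 and -2.31 in *L3mbtl2*-KD replicates 1 to 4. All arrays of both groups were above background for *Meis1*, and the groups were 1 log2 unit apart. The log2 fold change was -1.74 (SE 0.23, limma adjusted p = 0.0020; -1.35 and -2.14 within the slides), 29.8% of control. *Meis2* was at -1.63, -0.89, -1.17 and -0.67 in control samples and at -3.31, -2.19, -3.06 and -3.38 in *L3mbtl2*-KD samples. Replicate 2 was the highest *L3mbtl2*-KD array for both *Meis* genes. *Meis2* fell to 26.8% of control (log2 fold change -1.90, SE 0.29, limma adjusted p = 0.0041; -1.49 and -2.30 within the slides). With normexp background correction the change was -1.47 for *Meis1* and -1.31 for *Meis2*.

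*Msx1*, a homeobox gene of limb, tooth and neural crest tissue, moved the other way, from -3.28, -3, -3.20 and -3.20 in control samples to -2.91, -2.71, -2.64 and -2.57 in *L3mbtl2*-KD samples. The groups lay close together without overlap. *Msx1* rose 1.38-fold (0.46 in log2, SE 0.10, limma adjusted p = 0.018; 0.33 and 0.60 within the slides), and the adjusted p was 0.053 without control replicate 3 and 0.052 without *L3mbtl2*-KD replicate 3, within 0.0084 to 0.053 over the alternatives on both slides. *Msx2* gave -0.23 (limma adjusted p = 0.24; 0.014 with the block), and *Dlx5* was above background in control replicate 1 alone, at -5.57. For each of the 14 regulators with an adjusted p under 0.05, the two-sided exact permutation test gave p = 0.0286, the smallest that 4 against 4 allow. Every gene whose groups do not overlap gets this value, so it adds nothing to the absence of overlap. Groups did not overlap for 15.1% of all genes tested in the lower direction and for 13.9% in the higher. The 17 tested regulators with an adjusted p of 0.05 or more had fitted changes between -0.74 and 0.53 on the probes that stand for them. Within the first slide alone (2 samples per group), limma called 0 genes in either direction, with 319 genes higher and 373 lower past 2-fold at an unadjusted p under 0.05, 7 of them regulators that were lower.

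Control replicate 1 was the lowest control array for 9 of the 10 probes of regulators called lower. It was also the lowest for 314 of all 623 probes called lower (50.4%) and for 31.6% of all probes tested. Without it, the same 10 regulators were called lower, among 482 genes, and *Pou4f1* was called higher. Without control replicate 3 or 4, 6 regulators were called lower in each case, among 365 genes (2.67%) and 401 genes (2.94%).

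Markers of other cell types moved with the falling regulators, and their part in the result was not tested. Of 18 fibroblast markers, 16 were tested, 7 were called lower and *Loxl1* was called higher (2.02-fold), with a median log2 fold change of -1.22 (-1.06 and -1.37 within the slides). Their summed intensity, in units of the 75th percentile of the array, was 144.7, 171.2, 156.7 and 161.5 in control replicates 1 to 4, and 102.3, 123.7, 104.1 and 94.05 in *L3mbtl2*-KD replicates 1 to 4. *Sparc* made up 59.6% of it, and without *Sparc* the sums were 63.0, 73.0, 71.5 and 69.0 in control samples and 35.0, 41.6, 39.9 and 35.1 in *L3mbtl2*-KD samples. The sums did not overlap between the groups. *Lum* and *Postn* were not well above background on any array, while 13 of the 18 markers were above it on all 8 arrays, and several, such as *Vim* and *Sparc*, are not specific to fibroblasts. The ESCs were grown on fibroblast feeders, and whether feeder cells remained in either group was not tested. Any difference in sorting between the groups cannot be told apart from the knockdown. Among the 7 called lower, the largest fitted changes were those of *Dcn* (at least 12.3-fold lower), *Col3a1* (at least 7.92-fold lower), *Col1a2* (log2 fold change -2.81), *Acta2* (-2.72), *Col1a1* (-2.22) and *Col6a1* (-1.61), with adjusted p in limma from 0.00037 for *Dcn* to 0.047 for *Col6a1*. *Pdgfrb* was the other marker called lower. Control replicate 1 was the lowest control array for all 7.

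Primitive endoderm, the extraembryonic lineage that ESC cultures can form, was represented by 12 markers. All were tested, 7 were called lower and none higher, and the median was -1.69 (-1.33 and -1.98 within the slides). Their summed intensity was 26.9, 25.5, 24.2 and 31.7 in control samples and 9.41, 12.7, 9.82 and 8.04 in *L3mbtl2*-KD samples, of which *Lama1* made up 40.7%. *Cubn* (-3.20), *Lama1* (-2.18), *Col4a2* (-2.13) and *Col4a1* (-1.87), above background on all arrays, were among those that fell. *Dab2* (fitted -2.53) and *Sox17* (fitted -2.07) were too, but only 1 and 3 of their *L3mbtl2*-KD arrays were above background. The adjusted p in limma was 0.0059 or less for these 6. Control replicate 1 was the lowest control array for 2 of the 7 called lower.

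**Figure D3:**
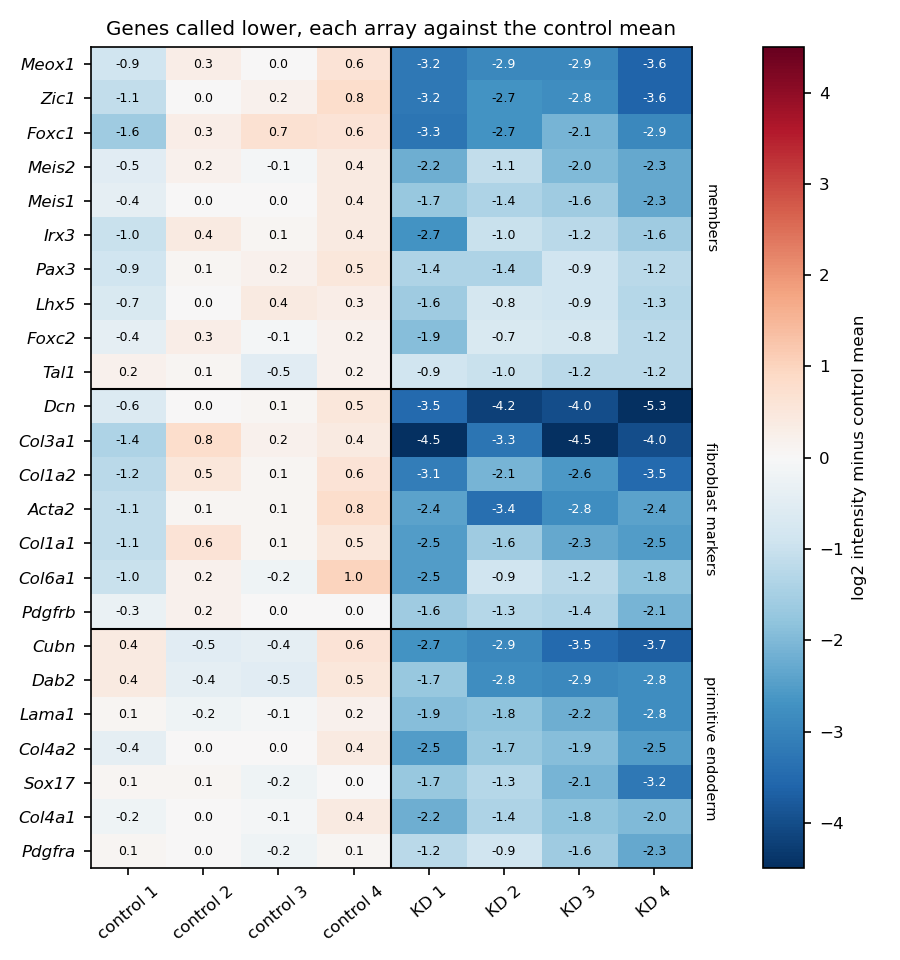
Log2 intensity on each array minus the control mean of the gene, for the 10 regulators (the falling probe of *Zic1*), 7 fibroblast markers and 7 primitive endoderm markers called lower. Control replicate 1 is below the control mean for 9 of the 10 regulators and for all 7 fibroblast markers, and it is the lowest control array for 2 of the 7 primitive endoderm markers.

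Markers of differentiated cells of the 3 germ layers gave few calls. Of 12 neural cell markers, 8 were tested and *Ncam1* (-1.63, limma adjusted p = 0.0020) was the only one called. None of the 7 tested mesoderm cell markers and none of the 5 tested endoderm cell markers, of 12 each, was called, and the medians of these lists were 0.07, -0.31 and -0.70. The summed intensity of neural markers was 17.4 to 18.1 in control and 14.6 to 15.6 in *L3mbtl2*-KD samples. *Stmn2* made up 43.3% of it, and without *Stmn2* the sums overlapped (8.65 to 10.1 in control and 8.82 to 10.1 in *L3mbtl2*-KD samples). Mesoderm markers summed to 4.80 to 5.65 in control samples and, apart from 9.43 in *L3mbtl2*-KD replicate 1, to 4.61 to 5.43 in *L3mbtl2*-KD samples. *Kdr* made up 73.0% of this sum, and without it the sums were 1.39 to 1.79 and 1.24 to 1.54. Endoderm markers summed to 5.21 to 6.12 and 3.39 to 5.56, of which *Krt18* made up 58.1%, and without it to 2.31 to 2.84 and 1.60 to 1.85.

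A further 125 developmental transcription factor genes that are not among the 44 were listed for comparison, and 72 of them were tested. Of these, 9 were called lower (12.5% of 72) and *Neurog3* was called higher, with a median log2 fold change of -0.13 (-0.22 and -0.11 within the slides). *Neurog3*, a gene of endocrine pancreas and spermatogonia, rose from -2.85, -2.12, -2.71 and -2.08 in control samples to -0.84, -0.47, -0.15 and 0.31 in *L3mbtl2*-KD samples (4.43-fold, standard error of the log2 fold change 0.27, limma adjusted p = 0.0018). The other large changes were decreases. *Sox9*, *Foxa2* and *Tbx20* were not well above background on any *L3mbtl2*-KD array and were at least 2.18-fold, 2.48-fold and 1.35-fold lower. *Olig3*, of the dorsal neural tube, changed by -2.25 (SE 0.25, limma adjusted p = 0.00098) and *Lhx3*, of motor neurons and pituitary, by -1.65 (SE 0.21, limma adjusted p = 0.0018), with all arrays above background. *Otx2*, *T* and *Eomes*, which mark epiblast and primitive streak and were picked after their values were seen, gave -0.13, -0.18 and -0.14.

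All 33 Polycomb complex genes listed, from PRC1, PRC2 and their variants, were tested. *L3mbtl2* was the only one called. The fitted changes of the others lay between -0.73 and 0.56, and the median of the list was -0.10. *Pcgf6* (0.07, limma adjusted p = 0.58), *Rnf2* (-0.06, adjusted p = 0.75) and *Ezh2* (-0.09, adjusted p = 0.47) had overlapping groups. They are named as core subunits, after their values were seen, as is *E2f6* (0.56, adjusted p = 0.011), which was at the upper end. They do not stand for the whole list. Among the genes not called, *Phf19* (-0.71, limma adjusted p = 0.0033) and *Aebp2* (-0.73, adjusted p = 0.04) were lower without overlap of the groups. *Yaf2* (0.41, adjusted p = 0.018) was higher without overlap. These genes were also picked after their values were seen.

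**Figure D4:**
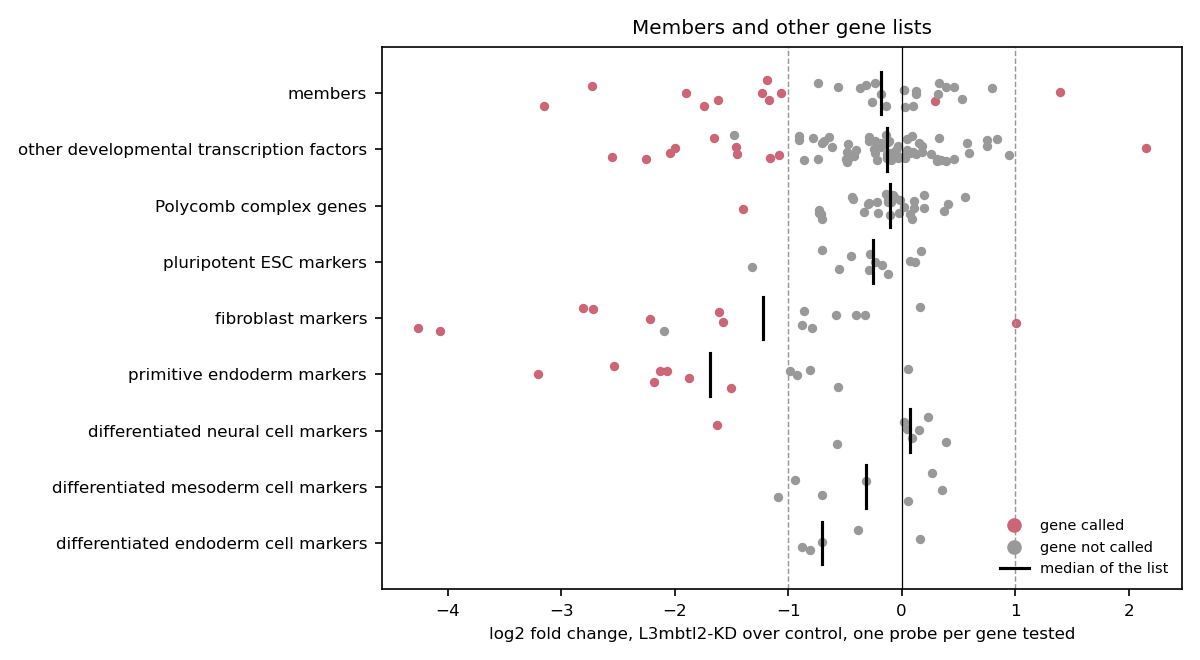
Log2 fold change of the tested genes of each list, on the probe with the highest mean signal, with a bar at the median and dashed lines at 2-fold. The regulators run from a fitted -3.15 (*Meox1*, dim in *L3mbtl2*-KD ESCs) to 1.40 around a median of -0.18, and the red point of *Zic1* at 0.29 is its probe that did not fall.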

How the data were processed

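The authors deposited, for each one-colour array, the Feature Extraction (version 10.7.3.1) intensity of every spot after background subtraction, with flags for outliers, saturation and signal well above background, per the file headers. A table of log2 values was deposited as well. Its values matched log2 intensities after a 75th percentile shift and subtraction of the probe median over the arrays (correlations of 0.999458 to 0.999914 for the 8 arrays, across 39429 probes), so levels are not kept in it. The medians of its 8 columns were -0.0589 to 0.0794.

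The values used here are the deposited intensities in log2, less the 75th percentile of their array. Control spots and outlier spots were left out, spots of a probe were averaged, and no spot was saturated. A probe counted as well above background on an array when at least 50% of its spots were. Gene symbols (19751) were found for 26055 of the 39429 probes by unversioned RefSeq accessions (GRCm38.p6, for names only). Tests covered the 23525 probes that were well above background throughout one or both groups. They used the lmFit and eBayes functions (limma 3.58.1, R 4.3.3), and p-values were adjusted over all these probes by the Benjamini-Hochberg method. The fit was tested on simulated data, where 173 of 200 probes (86.5%) given a 3-fold change were called, and 2 of the other probes. The simulated noise was normal and independent for each probe, without shared replicate or slide effects and without a background floor. These rates need not hold for the real arrays. Of the 23525 probes tested, 85 lacked a value on some array, none of them among the probes described.

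The members and the other gene lists were chosen with earlier results of these data known. Described in full were regulators that were called, those with an adjusted p under 0.05 below 2-fold, and the 3 whose probes had the highest mean signal. Other lists give up to 6 called genes with the largest change, and genes outside this rule are marked as such. One probe, the tested one with the highest mean signal, stands for a gene unless another is named.

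The labels give both groups the replicate numbers 1 to 4. With the group means taken off, samples of the same number correlated (0.38 to 0.58), and samples of different numbers less so (-0.44 to 0.25), so the numbers were taken as pairs from the values. Alternatives were normexp background correction (offset 50, run on median instead of mean spot intensities), quantile normalization, the authors' table, other filters on dim probes, blocking by slide or by replicate number, robust estimation with an intensity trend, a one-way test as named in the authors' figure legends, 1.5-fold, one probe per gene, each slide alone and leaving out each sample.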

Additional observations from a re-analysis of the deposited data

Results flagged for a closer look

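Among 64 groups of 4 arrays (the tested probes that stand for the 31 regulators, and the falling probe of *Zic1*), 6 held an array far from the other 3, where chance flags about 1 in 20 (3.2 of 64). The measure is the gap of that array to its nearest neighbour over the range of the group. It was 0.944 for *Hhex* in control ESCs (replicate 2 at -0.40, mean of the others -0.65), 0.863 for *Foxa1* in *L3mbtl2*-KD ESCs (replicate 2 at -0.54, others -1.47) and 0.857 for *Nkx2-2* in *L3mbtl2*-KD ESCs (replicate 4 at -3.12, others -3.32). For *Foxc1* in control ESCs it was 0.844 (replicate 1 at -5.31, others -3.15), for the brighter probe of *Zic1* in *L3mbtl2*-KD ESCs 0.844 (replicate 1 at -1.23, others -1) and for *Pou4f1* in control ESCs 0.836 (replicate 1 at -2.11, others -1.88). Without control replicate 1, *Foxc1* and *Pou4f1* were still called. No explanation was weighed.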

How the results depend on the processing

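Each of 22 alternatives was run on the same arrays, and the cause of a difference was not tested. *L3mbtl2*-KD ESCs had 340 genes called higher and 438 lower, among them 1 and 10 regulators. With normexp background correction, here with an offset added to every signal, these were 194 and 159 genes and 5 regulators lower. *Pax3*, *Lhx5*, *Foxc1*, *Foxc2* and *Tal1* then lost their calls. With probes above background on all 8 arrays alone, 250 genes were higher and 290 lower and 4 of 25 regulators were lower, since the dim probes of 6 others were not tested. At 1.5-fold, 700 genes were higher and 1014 lower, with 2 regulators higher, *Pou4f1* and *En2*. With adjusted p, the one-way test named in the authors' figure legends gave 289 genes higher and 327 lower and called 6 regulators lower, without *Pax3*, *Lhx5*, *Irx3* and *Foxc2*.

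Within the first slide, with 2 samples per group, 0 genes were higher and 0 lower, and so 0 regulators either way. At an unadjusted p under 0.05 there were 319 and 373 genes, with 7 regulators lower. Within the second slide 342 genes were higher and 406 lower, and all regulators but *Tal1* kept their calls.

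Leaving out one sample gave 298 to 371 genes higher and 357 to 500 lower, with 1 regulator higher throughout and 6 to 10 lower. The number was 6 without control replicate 3 (*Pax3*, *Lhx5*, *Irx3* and *Foxc2* lost) and 6 without control replicate 4 (*Lhx5*, *Irx3*, *Foxc2* and *Tal1* lost), and 10 without control replicate 1. The sign of the change of *Gbx2* turned without control replicate 1 (0.03) and without *L3mbtl2*-KD replicate 2 (0.04), within -0.41 to 0.04 over the samples left out. None of the other probes followed through the alternatives changed sign where it was tested, and the brighter probe of *Zic1* was not among those followed. The falling probe of *Zic1* and those of *Pax3*, *Foxc1*, *Foxc2*, *Tal1* and *Meox1* were not tested where all 8 arrays had to be above background. There, and with one probe per gene, *Zic1* was represented by its other probe, at 0.29.

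With the replicate number as a block, 358 genes were higher and 469 lower, and the calls of regulators were the same 11. The adjusted p of *Gbx2* (0.027) and *Sox3* (0.016) then passed 0.05, below 2-fold. With the slide as a block 345 and 448 genes were called.

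The other alternatives gave 324 to 398 genes higher and 355 to 471 lower. Quantile normalization ended the call of *Tal1*, testing every probe ended those of *Lhx5*, *Irx3* and *Foxc2* and added *Pax7*, and one probe per gene ended that of *Zic1*. The authors' table, the intensity trend with robust estimation and the unadjusted one-way test changed no other call.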
